A study of Homo sapiens with 16 samples.

Results

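The transcripts described here are those of 10 regulators on the ATF4 arm of the integrated stress response: ATF4, ATF3, ATF5, DDIT3, DDIT4, TRIB3, CHAC1, SESN2, PPP1R15A and CEBPB. They were chosen by name, were matched in GENCODE 29 on GRCh38, and are 10 of the 35075 genes whose transcripts could be matched. All 10 passed the filter on low counts. RNA was sequenced from HEK293, a human embryonic kidney cell line, in 4 groups of 4 libraries. One group overexpressed GFP as the control, one wild-type RNF43 (WT), one the frameshift variant RNF43 R117fs and one the frameshift variant RNF43 G659fs, so that every group, the control included, carried an overexpressed protein. RNF43 is a membrane E3 ubiquitin ligase that removes Wnt receptors from the cell surface. The sources used here do not give how the proteins were introduced, for how long they were expressed, or whether each replicate was a culture of its own. A p-value below therefore measures only the spread among libraries, which may be technical.

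The integrated stress response starts with kinases that phosphorylate the translation factor eIF2alpha. General translation then slows, while a few mRNAs with upstream open reading frames, ATF4 and ATF5 among them, are translated more. ATF4, a bZIP transcription factor, switches on genes of amino acid supply and a second tier of regulators: the factors ATF3 and DDIT3 (CHOP), the pseudokinase TRIB3, the glutathione-degrading enzyme CHAC1, the mTORC1 inhibitors DDIT4 and SESN2, and PPP1R15A (GADD34), which brings a phosphatase to eIF2alpha and so closes the loop. The kinase PERK links this arm to stress in the endoplasmic reticulum, where ATF6 and IRE1 with XBP1 form the other arms of the unfolded protein response. ATF4 is regulated mainly at translation, so its mRNA level is no measure of its protein.

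The sequence before 4 of the transcription starts is shown because 3 of the windows hold a motif that bZIP factors of this family are known to bind and because DDIT3 gave the largest difference among the 10 genes. RefSeq listed 18 start sites for the 10 genes, and the 250 bases before each were searched. TGATGNAA, the C/EBP-ATF response element bound by ATF4 with a C/EBP partner, was sought on both strands and was found in the windows of ATF3 and CHAC1. It was in 2 of the 18 windows, and occurs in 3.14% of the 35116 windows of all genes. TGACGTCA, the cyclic AMP response element, was found in the window of PPP1R15A, and in 1.65% of all windows. The stretches below come from RefSeq on GRCh38.p14, and run 5′ to 3′ on the strand of the gene. Those of ATF3, PPP1R15A and DDIT3 lie outside the exons of GENCODE 29, while the whole CHAC1 window lies within annotated exons, so that only 28 bases around its element are shown. Capitals mark the motif. In CHAC1 the element lies on the other strand, so that its reverse complement is in capitals, and DDIT3 has no match and so no capitals. The stretches are chr1:212565157-212565333 (plus strand) for ATF3, chr15:40953252-40953279 (plus strand) for CHAC1, chr19:48872171-48872391 (plus strand) for PPP1R15A and chr12:57520518-57520709 (minus strand) for DDIT3.
ATF3: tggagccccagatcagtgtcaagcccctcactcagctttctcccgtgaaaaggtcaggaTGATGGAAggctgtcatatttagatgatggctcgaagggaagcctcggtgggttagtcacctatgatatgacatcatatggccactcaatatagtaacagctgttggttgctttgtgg
CHAC1: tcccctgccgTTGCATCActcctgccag
PPP1R15A: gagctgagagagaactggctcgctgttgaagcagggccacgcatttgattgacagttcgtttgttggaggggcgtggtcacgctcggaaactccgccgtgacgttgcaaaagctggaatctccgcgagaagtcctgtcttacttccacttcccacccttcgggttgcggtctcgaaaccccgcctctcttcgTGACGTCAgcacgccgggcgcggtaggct
DDIT3: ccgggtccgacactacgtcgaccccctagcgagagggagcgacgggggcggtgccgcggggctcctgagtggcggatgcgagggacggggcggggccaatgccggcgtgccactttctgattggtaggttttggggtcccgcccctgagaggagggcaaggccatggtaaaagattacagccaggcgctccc

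The element of ATF3 begins 191 bases and that of CHAC1 209 bases before the RefSeq start, and the element of PPP1R15A begins 58 bases before it. TGACGTGG, the unfolded protein response element bound by XBP1 and ATF6, was in none of the 18 windows and in 0.61% of all windows. CCAAT followed 9 bases later by CCACG, the endoplasmic reticulum stress element, was also in none of them, and in 0.07% of all windows. Only exact matches to these patterns were counted. The DDIT3 stretch printed above holds CCAAT followed 9 bases later by CCACT, which differs from that element in the last letter. TATAAA on the strand of the gene was found in 5 of the 18 windows and in 6.8% of all windows. Those 5 belong to 4 of the 10 genes (ATF4, ATF3, PPP1R15A and CEBPB). The ATF3 match began 230 bases before its start, and the others 27 to 30 bases before theirs. The windows of the 10 genes had a median GC content of 66.4%, against 58.0% for all windows. A match describes letters in a window and is not a site of binding, and binding was not measured.

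The libraries held 20364357 to 46779570 estimated counts each. Of the markers of other cell types, 3 of 9 haematopoietic, 2 of 8 fibroblast and 3 of 6 gut epithelial markers reached a mean of 1 TPM, against 7 of 7 HEK293 markers. The highest of those other markers were CDX2 at 22.3 TPM and COL1A1 at 20.45 TPM. Of the HEK293 markers PAX2 (4.27 TPM) was below these, and the lowest of the rest was CDH2 (24.01 TPM). RNF43 was measured at 13.1 to 50.3 CPM (counts scaled to a common library total) in the GFP libraries and at 30190 to 94570 CPM in the RNF43 libraries, which separates the GFP group from the others but not the 3 RNF43 groups from each other. R117fs replicate 4 stood apart: its deviation from its group had an SD of 0.578 (log2) over all genes and a Spearman correlation with gene GC content of 0.799, where the other libraries had SDs of at most 0.409 and correlations of -0.621 to 0.373. The 10 genes have GC contents of 49.9% to 66.2%. In a chi-square comparison of library pairs, which counted RNF43 itself among the genes, R117fs replicate 1 was also far from replicates 2 and 3. Per degree of freedom it gave 71.16 and 78.73 with them, where replicate 4 gave 61.74 and 51.39. Replicates 2 and 3 gave 5.47 with each other. Replicate 1 had 30190 CPM of RNF43, against 69370 to 94570 CPM in the rest of its group. The part of RNF43 in these chi-square values was not separated. Over all genes the deviation of replicate 1 was within the range of the other libraries, with an SD of 0.389 and a GC correlation of -0.351. Fold changes and calls of the 10 genes that rest on R117fs replicate 4 are also given without that library, as an alternative to the fit of all 16. So are the counts over gene lists that it moved.

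ATF4 was by far the most abundant of these mRNAs. On the scale of deposited TPM, which is per length, the GFP libraries had a mean of 1209 TPM for ATF4 (range 1178 to 1242), above 99.3% of the genes tested. DDIT4 followed at 177.7 TPM (152.8 to 209.6), and its range overlapped neither that of ATF4 nor that of the next gene. A retained-intron transcript held a mean of 33.5 TPM of this DDIT4 level. With protein-coding transcripts only, DDIT4 had 143.1 TPM (127.2 to 155.9). That range overlapped those of SESN2 (113.3 to 151.2) and ATF3 (104.6 to 139.8). ATF3, SESN2, DDIT3 and TRIB3 lay close together, with means from 113.2 to 128.9 TPM. PPP1R15A had 83.1 TPM, ATF5 72.1 TPM, CHAC1 46.4 TPM and CEBPB 36.4 TPM. From ATF3 downward each gene's range overlapped that of its neighbour in this order, so the order of neighbours within the lower 8 was not fixed by these libraries. Genes further apart could separate, as ATF3 (110.8 to 145.5 TPM) did from ATF5 (52.1 to 95.1 TPM). In the WT libraries ATF3 moved up to second place at 196.5 TPM, and its range was above that of DDIT4 at 183.4 TPM. In the G659fs libraries ATF5 was last at 41.5 TPM, with a range that overlapped that of CEBPB at 44.3 TPM.

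**Figure D1:**
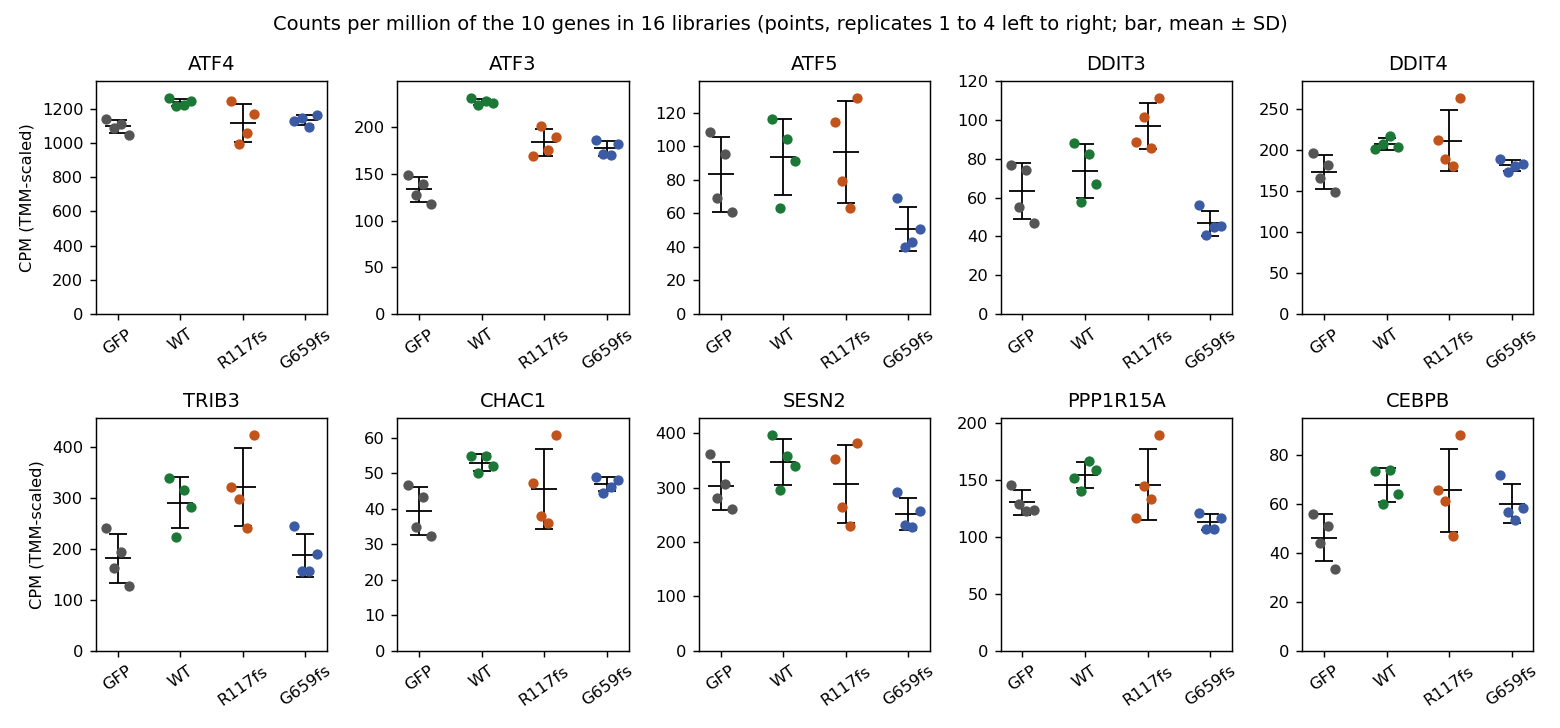
CPM of each of the 10 genes (vertical axis, linear, from 0) in the 4 groups (horizontal axis). Each point is 1 library, replicates 1 to 4 from left to right, and the bars give the mean ± SD of 4 libraries. The ATF3 points of GFP lie below those of all 3 RNF43 groups, and the DDIT3 points of G659fs lie below all of those of WT and R117fs.

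Each of the 10 genes was compared between every 2 groups with edgeR's quasi-likelihood test, and changed means a Benjamini-Hochberg adjusted p under 0.05 over the 16787 genes tested. Of the 60 combinations of gene and comparison 18 were called. Of those 18, 4 were called under each of the 26 alternative settings tried: ATF3 in the 3 comparisons with GFP, and DDIT3 in G659fs against R117fs. The other 14 were lost under at least 1 setting. The libraries of the 2 groups compared did not overlap for 5 of the 10 genes in WT against GFP (33.8% of all genes tested). Against GFP this held for 2 in R117fs (16.5%) and 2 in G659fs (37.9%). It held for 1 in R117fs against WT (15.3%), 7 in G659fs against WT (26.8%) and 1 in G659fs against R117fs (18.1%).

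In wild-type RNF43 against GFP 4 of the 10 genes rose (ATF3, TRIB3, CHAC1 and CEBPB) and none fell, where 9.85% of all genes tested rose and 11.6% fell. All 10 log2 fold changes were above 0, with a median of 0.25 against 0.00 for all genes. In R117fs against GFP 4 rose (ATF3, DDIT3, TRIB3 and CEBPB) and none fell, against 7.04% and 8.57% of all genes. In that comparison all 10 estimates were again above 0, with a median of 0.25. With R117fs replicate 4 left out, ATF3 alone of the 10 was called, the median was 0.11, and 9 estimates were above 0, SESN2 being at -0.10. In that fit 9.85% of all genes rose and 11.85% fell. With R117fs replicates 1 and 4 both left out, ATF3 was again the only call (log2 0.51, edgeR adjusted p = 7.46e-05). In that fit 3924 of all genes were called in either direction, against 2620 with all 16 libraries. TRIB3 was then at 0.59 (adjusted p = 0.14) and DDIT3 at 0.58 (adjusted p = 0.0849), while ATF4, ATF5, CHAC1 and SESN2 were below 0. In G659fs against GFP ATF3 rose and DDIT3 fell, against 11.6% and 13.8% of all genes. There 6 estimates were above 0 and 4 below, with a median of 0.05. These 3 comparisons share the same 4 GFP libraries.

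Between the RNF43 groups every call was toward less mRNA in the variant named first. In G659fs against WT 3 genes fell (ATF3, DDIT3 and PPP1R15A) and none rose, where 3.35% of all genes fell and 2.32% rose. All 10 estimates were below 0 there, with a median of -0.41. In G659fs against R117fs 4 fell (ATF5, DDIT3, TRIB3 and PPP1R15A) and none rose, against 8.02% and 6.35% of all genes, with a median of -0.25. With R117fs replicate 4 left out, 2 of these fell (DDIT3 and PPP1R15A), against 12% of all genes, and the median was -0.13. In R117fs against WT ATF3 alone fell and none rose, against 3.62% and 4.5% of all genes, and the median was -0.07. With R117fs replicate 4 left out, ATF3 and CHAC1 fell, against 4.785% of all genes, and the median was -0.19. The number of all genes called in these comparisons moved with the setting. In G659fs against WT it was 953, but 100 without G659fs replicate 2, where none of the 10 genes fell, and 4660 in a fit of its own 8 libraries, where 8 of the 10 fell. In R117fs against WT it was 1362, but 154 in a fit of its own 8 libraries, where none of the 10 fell.

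**Figure D2:**
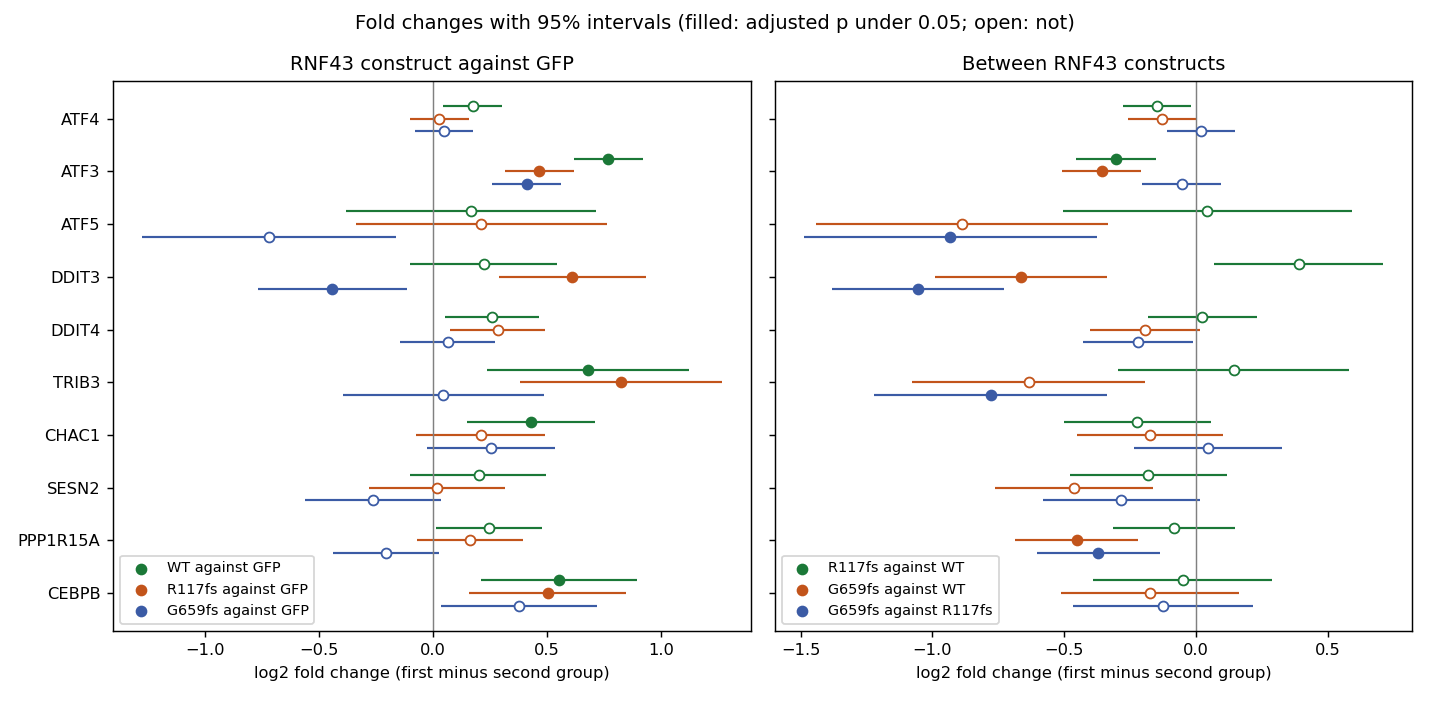
Log2 fold change of each gene (horizontal axis, first minus second group) with its 95% interval, for the 3 comparisons with GFP (left) and the 3 between RNF43 groups (right). Filled points had an adjusted p under 0.05 and open points did not. ATF3 is filled in all 3 comparisons with GFP, and the 3 filled points furthest to the left are DDIT3, ATF5 and TRIB3 in G659fs against R117fs.

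ATF4, the factor that gives the arm its name, was called in no comparison. Its CPM in the GFP replicates 1 to 4 was 1142, 1087, 1113 and 1047. In the WT replicates it was 1262, 1219, 1224 and 1246, above every GFP library. The WT estimate was 1.13-fold (log2 0.17 ± 0.06 SE, edgeR adjusted p = 0.0505), just short of the threshold, and 11 of the 26 alternatives called it (adjusted p 0.000876 to 0.154). Leaving out any 1 of the 4 R117fs libraries, which are not in the comparison but share its estimate of spread, was enough to call it (adjusted p 0.017 to 0.0495). R117fs had 1118 ± 111 CPM and G659fs 1133 ± 29.4 CPM (SD, n = 4), and both overlapped GFP. The 95% intervals of their log2 differences from GFP ran from -0.10 to 0.16 and from -0.08 to 0.18. R117fs against WT had a log2 estimate of -0.15 ± 0.06 (adjusted p = 0.141), which was called without R117fs replicate 1 (adjusted p = 0.0266; 0.000732 to 0.401 over all alternatives). Reads of ATF4 could in part be shared with 4 annotated pseudogenes, whose mean estimated counts were only 4.3 to 29.2.

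ATF3, a bZIP factor of the second tier and an early responder to many stresses, rose in all 3 RNF43 groups. Its CPM in the 4 GFP replicates was 149, 128, 139 and 118. The WT replicates had 231, 224, 228 and 226 CPM, the highest of any group and the closest together. R117fs had 169.7, 201, 176 and 190.2 CPM, and G659fs had 186, 172, 170.1 and 182 CPM. GFP overlapped none of the other groups, and WT lay above both variants, while the 2 variants overlapped. Against GFP, ATF3 rose 1.70-fold in WT (log2 0.77 ± 0.07 SE, adjusted p = 3.81e-06). It rose 1.38-fold in R117fs (log2 0.47 ± 0.07, adjusted p = 0.000422) and 1.33-fold in G659fs (log2 0.41 ± 0.07, adjusted p = 0.000583). The R117fs value was 0.45 (adjusted p = 0.000138) without R117fs replicate 4.

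The ATF3 level in the variants was below that of wild type. R117fs was 1.23-fold lower than WT (log2 -0.30 ± 0.07, edgeR adjusted p = 0.0166), and without R117fs replicate 4 the value was -0.32 (adjusted p = 0.00735). That call was lost in a fit of the 8 libraries compared (adjusted p = 0.107) and with a correction for effective length (0.116), the highest of the 26 alternatives, whose lowest was 0.00142. G659fs was 1.28-fold lower than WT (log2 -0.36 ± 0.07, adjusted p = 0.0113). This second call was lost without G659fs replicate 2 (adjusted p = 0.0616) or replicate 3 (0.0586), out of a range that began at 0.000101. Between the variants the difference was -0.05 ± 0.07, with a 95% interval of -0.21 to 0.10. In the GFP libraries 40.4% of the ATF3 counts were assigned to the transcript that starts after the sequence printed above (ENST00000366987) and 48.2% to ENST00000341491, which starts at position 212608670 and has no RefSeq window in the table used. The share of the first was 39.9% in WT, 25.4% in R117fs and 35.1% in G659fs, with SDs that overlap, and the difference was not tested.

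DDIT3 encodes CHOP, a C/EBP relative that promotes cell death when stress lasts, and it was the one gene called in opposite directions against GFP. The GFP replicates had 76.9, 55.4, 74.0 and 46.9 CPM. The WT replicates had 87.9, 57.8, 82.5 and 67.1 CPM and overlapped GFP. R117fs had 88.8, 101, 85.6 and 111 CPM, all above GFP, and G659fs had 55.9, 40.8, 44.8 and 45.1 CPM, all below WT and R117fs. DDIT3 was 2.08-fold lower in G659fs than in R117fs (log2 -1.05 ± 0.16, edgeR adjusted p = 0.000345). Over the alternatives this estimate stayed between -1.16 and -0.98, with -0.98 (adjusted p = 0.00269) without R117fs replicate 4.

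Against GFP the DDIT3 calls were closer to the threshold. R117fs was 1.53-fold higher (log2 0.61 ± 0.15, edgeR adjusted p = 0.0128), and 4 of 26 alternatives lost the call, among them the fits without GFP replicate 4 (adjusted p = 0.0515) and without R117fs replicate 4 (0.54, adjusted p = 0.0555). The range over all of them was 0.00159 to 0.0849. G659fs was 1.36-fold lower than GFP (log2 -0.44 ± 0.15, adjusted p = 0.0441), a call that 14 of 26 alternatives lost (adjusted p 0.0151 to 0.144). Those included leaving out any of GFP replicates 1 and 3, WT 3 and 4, R117fs 2 and 4, and G659fs 2, 3 and 4. G659fs was 1.58-fold lower than WT (log2 -0.66 ± 0.15, adjusted p = 0.0219), lost without WT replicate 1 or 3 or G659fs replicate 2, 3 or 4 (adjusted p 0.0575 to 0.0956, and 0.00177 at the lowest over all alternatives). WT against GFP was 0.22 with a 95% interval of -0.10 to 0.54, and R117fs against WT was 0.39 (0.07 to 0.71, adjusted p = 0.117), neither of them called under any alternative. The gene lies across from MARS, with 982 shared bases on the opposite strand, and MARS had a mean of 247 TPM. As no strand setting is given, reads from the shared part cannot be told apart.

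ATF5, translated under stress as ATF4 is and tied to the mitochondrial stress response, varied widely within groups. Its CPM was 108, 69, 95.3 and 60.5 in GFP and 116, 62.9, 104 and 90.9 in WT. It was 115, 79.3, 63.1 and 129 in R117fs and 69, 39.8, 43.2 and 50.9 in G659fs. G659fs held the lowest 3 values of all 16 libraries, though its highest overlapped each other group. Only G659fs against R117fs was called, 1.91-fold lower (log2 -0.93 ± 0.26, edgeR adjusted p = 0.0278). The value was -0.78 (adjusted p = 0.0765) without R117fs replicate 4, and the call was also lost without R117fs 1 or G659fs 2, 3 or 4 (0.0547 at the lowest of these and 0.257 at the highest of all alternatives).

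G659fs against GFP, at -0.72 ± 0.26 for ATF5, missed the threshold (edgeR adjusted p = 0.0551), and 9 of 26 alternatives called it, including those without GFP 4, WT 2, R117fs 3 or G659fs 1 (adjusted p 0.026 to 0.0425, from 0.01 to 0.144 in all). G659fs against WT, at -0.89 ± 0.26, also missed it (adjusted p = 0.0582), and 10 of 26 called it, including those without WT 2, R117fs 3 or 4, or G659fs 1 (0.0304 to 0.0481, from 0.00637 to 0.18 in all). In WT and R117fs the ATF5 difference from GFP was not distinguishable from 0, with 95% intervals of -0.38 to 0.71 and -0.34 to 0.76. NUP62 overlaps 1062 bases of ATF5 on the opposite strand and had a mean of 79 TPM.

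CEBPB, a C/EBP factor that pairs with ATF4 and with CHOP, had 56, 44.2, 51.1 and 33.6 CPM in GFP. WT had 73.5, 60.1, 73.9 and 64 CPM, all above GFP. R117fs ranged from 47 to 88.3 CPM and G659fs from 53.5 to 71.8 CPM, and both overlapped GFP. CEBPB rose 1.47-fold in WT (log2 0.55 ± 0.16, edgeR adjusted p = 0.0217). That call was lost without GFP 2 or 4 or WT 1 or 3 (adjusted p 0.0571 to 0.0872, 0.00194 at the lowest of all). In R117fs CEBPB was 1.42-fold higher (log2 0.50 ± 0.16, adjusted p = 0.0446), but 17 of 26 alternatives lost the call (adjusted p 0.0121 to 0.382), including those without any 1 of 11 libraries. Without R117fs replicate 4, which had the highest value of all, it was 0.34 (adjusted p = 0.171). G659fs had 0.38 ± 0.16 (adjusted p = 0.0987), called under no alternative. CEBPB-AS1 is annotated across 765 bases of the gene on the opposite strand.

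TRIB3 is a pseudokinase that ATF4 and CHOP induce and that holds back AKT and ATF4 itself. Like DDIT3 it was called higher in R117fs than in GFP and lower in G659fs than in R117fs. Unlike DDIT3 it was also called in WT against GFP, and was not called in G659fs against GFP or WT. GFP had 242, 162, 194 and 128 CPM. WT had 339.7, 224, 316 and 283 CPM, and R117fs had 321, 299, 240.7 and 424 CPM. G659fs had 245, 157, 156 and 190.8 CPM, about the level of GFP. In every group replicate 1 or, in R117fs, replicate 4 was highest, and each of WT and R117fs overlapped GFP by 1 library. TRIB3 rose 1.60-fold in WT (log2 0.68 ± 0.21, edgeR adjusted p = 0.0298) and 1.77-fold in R117fs (log2 0.82 ± 0.21, adjusted p = 0.0152). It was 1.72-fold lower in G659fs than in R117fs (log2 -0.78 ± 0.21, adjusted p = 0.0212), and its G659fs difference from GFP was 0.04 with a 95% interval of -0.40 to 0.49.

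Each of the 3 TRIB3 calls could be undone by 1 library. The WT call was lost without GFP 2 or 4 or WT 1, 3 or 4 (edgeR adjusted p 0.0529 to 0.0828, 0.00663 at the lowest of all alternatives). Without R117fs replicate 4, the library with the highest TRIB3 value, R117fs against GFP was 0.66 (adjusted p = 0.0579, range over all 0.00376 to 0.14) and G659fs against R117fs was -0.62 (adjusted p = 0.0699, range over all 0.00721 to 0.158). The second was lost also without G659fs 2 or 3 (0.0643 at the lowest). G659fs against WT was -0.64 ± 0.21 (adjusted p = 0.0813), and 5 of 26 alternatives called it, 2 of them by leaving out WT 2 or G659fs 1 (0.0389 to 0.0494, from 0.0146 to 0.226 in all).

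CHAC1, which breaks down glutathione, is a widely used readout of ATF4 activity. It had 46.7, 34.9, 43.3 and 32.4 CPM in GFP and 55, 50.0, 54.9 and 52.2 CPM in WT, with every WT library above every GFP library. R117fs had 47.4, 38, 36 and 60.8 CPM and overlapped both. G659fs was tight at 49, 44.4, 46.2 and 48.1 CPM, within or above the GFP range and below WT. CHAC1 rose 1.35-fold in WT (log2 0.43 ± 0.13, edgeR adjusted p = 0.029). The call was lost without GFP 2 or 4 or WT 1, 3 or 4 (adjusted p 0.0534 to 0.112). It was also lost (adjusted p = 0.512, the highest of the alternatives, from 0.000241) when only transcripts of the same version in the files and in GENCODE 29 were counted.

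In R117fs the CHAC1 difference from GFP was 0.21 ± 0.13 (edgeR adjusted p = 0.319), and 0.05 (adjusted p = 0.804) without R117fs replicate 4. Without that library R117fs against WT was -0.38 (adjusted p = 0.0405), against -0.22 (adjusted p = 0.304) with it, over a range of 0.00421 to 0.831. In G659fs the CHAC1 difference from GFP was 0.25 ± 0.13, with a 95% interval of -0.03 to 0.54, called in 2 of 26 alternatives.

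DDIT4 (REDD1), an inhibitor of mTORC1 induced by stress and low oxygen, had 197, 166, 182 and 149.5 CPM in GFP. WT had 202, 207, 217 and 204 CPM, above all GFP libraries. R117fs had 212, 189, 181 and 263.5 CPM, and G659fs had 189, 174, 181 and 183 CPM. R117fs replicate 4 had 276.5 TPM of DDIT4, but 163.3 TPM from protein-coding transcripts only. No DDIT4 comparison was called. WT against GFP was 0.26 ± 0.10 (edgeR adjusted p = 0.0718), which became a call without GFP 1 or without R117fs 4 (adjusted p 0.0367 and 0.00582, from 0.000791 to 0.316 in all). R117fs against GFP was 0.28 ± 0.10 (adjusted p = 0.0606), and 0.16 (adjusted p = 0.122) without R117fs 4. It became a call without GFP 1 or R117fs 2 or 3 (0.0249 to 0.034). G659fs against WT was -0.19 ± 0.10 (adjusted p = 0.257), a call without R117fs 4 (0.048), and G659fs against GFP was 0.06 with a 95% interval of -0.14 to 0.27.

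SESN2, a leucine sensor that also restrains mTORC1, had 302.8 ± 44 CPM in GFP and 347.6 ± 42.4 CPM in WT (SD, n = 4). R117fs had 306.6 ± 72.2 CPM and G659fs 252 ± 29.7 CPM. Only the WT and G659fs libraries did not overlap. No SESN2 comparison was called. G659fs against WT, at -0.46 ± 0.14 (edgeR adjusted p = 0.0616), came nearest, and 9 of 26 alternatives called it, including those without WT 2 or R117fs 3 or 4 (0.0386 to 0.0462, from 0.000778 to 0.205 in all). The 95% interval of the difference from GFP ran from -0.10 to 0.50 for WT. For R117fs it ran from -0.28 to 0.32, and for G659fs from -0.56 to 0.03.

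PPP1R15A, the feedback subunit of the eIF2alpha phosphatase, was lowest in G659fs. GFP had 146, 129, 123 and 124 CPM, and WT had 152, 140.5, 167 and 159 CPM. R117fs had 117, 145, 133 and 189.7 CPM, the widest spread. G659fs had 121, 107, 107 and 117 CPM, below every GFP and every WT library. It was 1.37-fold lower in G659fs than in WT (log2 -0.45 ± 0.11, edgeR adjusted p = 0.0265), a call lost without WT 1, 3 or 4 or G659fs 2, 3 or 4 (adjusted p 0.0552 to 0.103, 0.000186 at the lowest of all).

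PPP1R15A was also 1.29-fold lower in G659fs than in R117fs (log2 -0.37 ± 0.11, edgeR adjusted p = 0.0324). Without R117fs replicate 4 this was -0.22 (adjusted p = 0.0455), and it was lost without R117fs 2 or G659fs 2, 3 or 4 (0.0534 to 0.0978, from 0.00492 to 0.129 in all). The PPP1R15A difference from GFP was 0.16 ± 0.11 in R117fs, and 0.01 (adjusted p = 0.925) without R117fs 4. It was 0.25 ± 0.11 in WT (adjusted p = 0.123) and -0.21 ± 0.11 in G659fs (adjusted p = 0.184). The WT and G659fs values were both called without R117fs 4 (adjusted p 0.0115 and 0.0286, with ranges of 0.00394 to 0.267 and 0.00976 to 0.389). The related constitutive subunit PPP1R15B rose 1.21-fold in G659fs against WT (log2 0.28 ± 0.06, adjusted p = 0.0164) and 1.18-fold against GFP (log2 0.23 ± 0.06, adjusted p = 0.00906).

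Within a group the 10 genes tended to rank the libraries alike. In GFP the order of replicates from high to low was 1, 3, 2, 4 for 9 of the 10 genes (all but PPP1R15A), for 13 of 43 other ATF4 targets and for 7.65% of all genes tested. In WT the commonest order (1, 3, 4, 2) held for 6 of the 10 and for 10.6% of all genes. In R117fs the order 4, 1, 2, 3 held for 6 and 10.1%, and in G659fs the order 1, 4, 2, 3 held for 5 and 6.58%. Over the 45 gene pairs, the Pearson correlation of deviations from the group means over 16 libraries was above 0 in 44, with a median of 0.70 and a range of -0.04 (ATF4 with ATF3) to 0.97 (DDIT4 with CHAC1). It was above 0 in 43 pairs, with a median of 0.71, when R117fs replicate 4 was left out. The points share libraries, scaling and depth, so these values are descriptions, and the orders were looked at after the values were seen. The 10 genes are thus not 10 separate measurements of a group's difference.

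**Figure D3:**
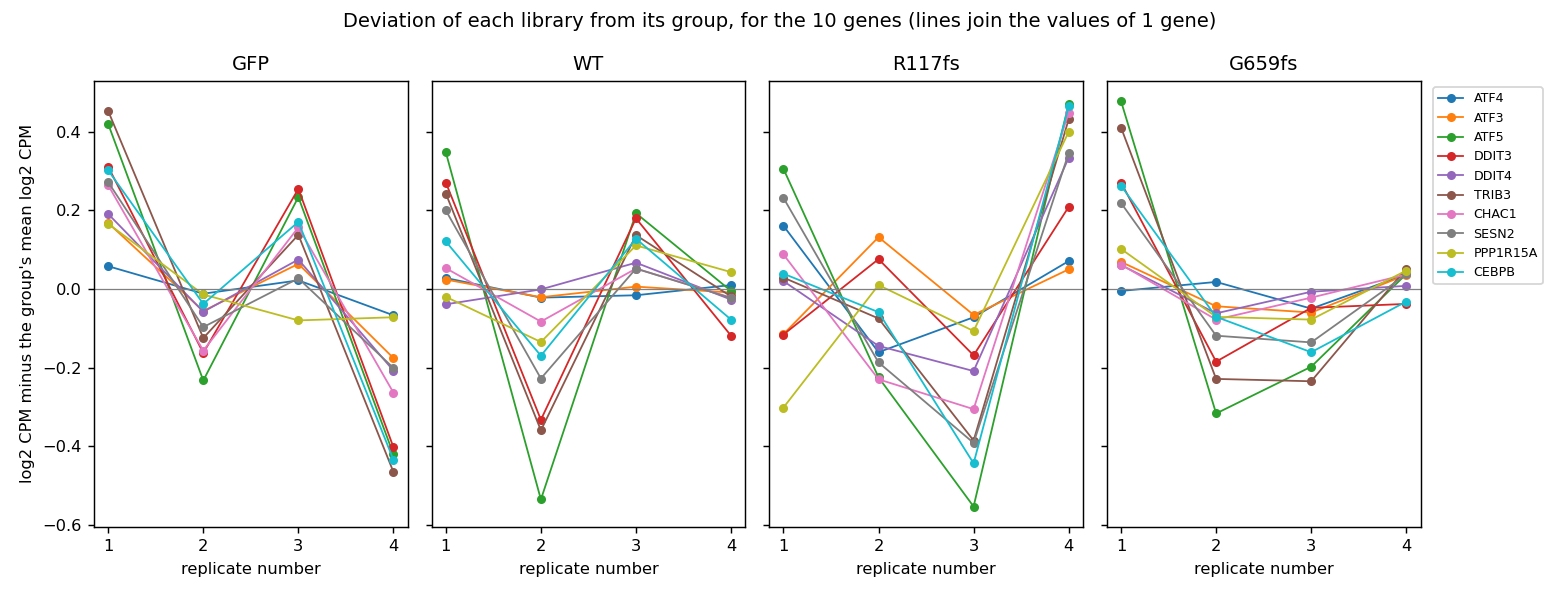
Deviation of log2 CPM from the mean of the group (vertical axis) for each library (horizontal axis, replicate number, which has no order), with 1 line per gene and 1 panel per group. In GFP most lines are high at replicates 1 and 3 and low at replicate 4. In R117fs 8 of the 10 genes are highest in replicate 4, as are 37.1% of all genes tested.

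Other genes of the pathway were read from lists. Of 43 further ATF4 targets, among them genes of amino acid synthesis, amino acid import and tRNA charging, 23 rose and 2 fell in WT against GFP, with a median log2 fold change of 0.30 against 0.00 for all genes. Of all genes tested 9.85% rose and 11.6% fell. FGF21, a secreted stress hormone, had the smallest adjusted p: 5.34 ± 0.665 CPM in GFP and 12.5 ± 1.33 CPM in WT (SD, n = 4), a 2.33-fold rise (log2 1.22 ± 0.17, edgeR adjusted p = 8.55e-05). CTH of cysteine synthesis rose 1.45-fold (log2 0.53 ± 0.08, adjusted p = 0.00033). ASNS, asparagine synthetase, rose 1.36-fold (log2 0.44 ± 0.08, adjusted p = 0.000642), and ALDH18A1 of proline synthesis rose 1.24-fold.

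In R117fs against GFP 11 of the 43 ATF4 targets rose and 1 fell, against 7.04% and 8.57% of all genes, with a median of 0.20. HERPUD1, which the endoplasmic reticulum stress arms also induce, rose 1.95-fold (log2 0.96 ± 0.10, edgeR adjusted p = 1.01e-05; 1.91-fold without R117fs replicate 4), and the proline enzyme PYCR1 rose 1.44-fold. KLHL24 was the gene that fell, 1.61-fold. Dropping R117fs replicate 4 gave 17 that rose, against 9.85% of all genes, and fitting GFP and R117fs alone gave 3. In G659fs against GFP 16 rose and 4 fell, against 11.6% and 13.8% of all genes, with the same median of 0.20. NDRG1 rose 1.47-fold, PYCR1 1.44-fold and ASNS 1.31-fold, while the cysteinyl-tRNA synthetase CARS fell 1.30-fold (log2 -0.38 ± 0.07, adjusted p = 0.000664). The number that rose there was 8 without GFP 2 or GFP 4, 10 without G659fs 1 and at most 24 without any 1 library, and the number that fell was 2 without GFP 1 or 3 or G659fs 2 or 3.

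Between the RNF43 groups fewer of the ATF4 targets were called. In G659fs against WT 1 rose and 5 fell, among them the tryptophanyl-tRNA synthetase WARS (log2 -0.41 ± 0.09, edgeR adjusted p = 0.0163), HERPUD1, FGF21 and CTH. The number that fell was 0 without any 1 of WT 1, WT 3, G659fs 2 and G659fs 3, 1 without G659fs 4 and 2 without WT 4. It was 8 without WT 2, 13 without R117fs 4, and 21 in a fit of WT and G659fs alone. The 1 that rose was lost without any 1 of 11 libraries, and 3 rose without R117fs 4. In G659fs against R117fs 4 rose and 7 fell, with the smallest adjusted p among those that fell for HERPUD1 (log2 -0.89 ± 0.10), WARS (-0.61 ± 0.09) and AARS (-0.31 ± 0.06), while the amino acid transporter SLC38A2 rose 1.41-fold (1.28-fold without R117fs 4). The number that rose was 2 without G659fs 1, 2 or 3 and 7 without R117fs 4, and 6 to 8 fell without any 1 library. In R117fs against WT 2 rose (HERPUD1 and AARS) and 5 fell, PSAT1 and PSPH of serine synthesis among them. The number that fell was 1 without WT 4 or R117fs 2, and at most 7 without any 1 library. Of all genes tested 2.32% rose and 3.35% fell in G659fs against WT, and 9.45% and 11.25% without R117fs 4. The shares were 6.35% and 8.02% in G659fs against R117fs, and 4.5% and 3.62% in R117fs against WT.

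The list of 17 ATF6 and XBP1 targets, chaperones and degradation factors of the endoplasmic reticulum, had its largest changes in R117fs. There 16 of 17 rose against GFP and none fell, with a median of 0.82. DERL3 rose 8.12-fold (log2 3.02 ± 0.23, edgeR adjusted p = 1.35e-07), from 1.57 ± 0.35 to 13 ± 3.97 CPM. HSPA5 (BiP), the main chaperone of the compartment, rose 3.36-fold from 630.2 ± 24.8 to 2119 ± 612 CPM. PDIA4 rose 3.82-fold and HYOU1 2.64-fold. With R117fs replicate 4 left out, 16 again rose, with DERL3 at 7.21-fold, HSPA5 at 3.35-fold, PDIA4 at 3.63-fold and HYOU1 at 2.44-fold. In WT against GFP 12 rose, with a median of 0.45, and XBP1 itself rose 1.48-fold (log2 0.56 ± 0.07, adjusted p = 2.22e-05). In G659fs against GFP 5 rose, with a median of 0.24. That number was 2 without GFP 4, 3 without GFP 2, G659fs 1 or G659fs 4, 9 without R117fs 4 and 10 without R117fs 1. In R117fs against WT 12 of 17 rose while ATF3 fell and no other of the 10 regulators was called. In G659fs against R117fs 15 of 17 fell. Of all genes tested 7.04% rose in R117fs, 9.85% in WT and 11.6% in G659fs against GFP, the last being 19.7% without R117fs 4. In R117fs against WT 4.5% of all genes rose, and in G659fs against R117fs 8.02% fell.

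**Figure D4:**
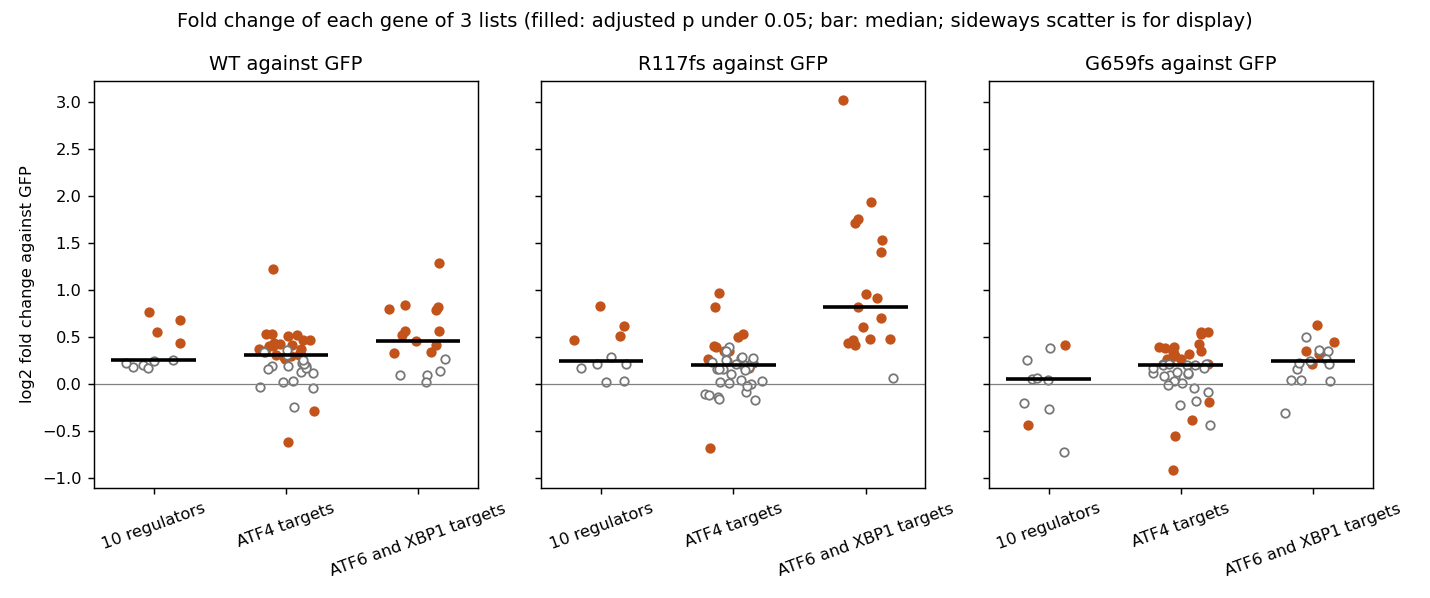
Log2 fold change against GFP (vertical axis) of each gene of 3 lists (horizontal axis: the 10 regulators, 43 other ATF4 targets, 17 ATF6 and XBP1 targets), 1 panel per RNF43 group. Filled points had an adjusted p under 0.05, open points did not, and the bar is the median. In R117fs the median is 0.82 for the ATF6 and XBP1 targets and 0.25 for the 10 regulators.

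Genes upstream of ATF4 were read from a list of their own. Of 17 genes of eIF2alpha signalling, which include the 4 eIF2alpha kinases and the subunits of the exchange factor eIF2B, 1 rose in WT against GFP (EIF2B3, 1.22-fold, edgeR adjusted p = 0.0116), 2 in R117fs (DNAJC3 and EIF2B3) and 1 in G659fs (PPP1R15B), and none fell. Of all genes tested 9.85%, 7.04% and 11.6% rose in these comparisons. The median of the list was 0.09, 0.05 and 0.03. Without R117fs 4 the number that rose was 5 in each, with 1 that fell in WT and 2 in G659fs. In that fit 18.2%, 9.85% and 19.7% of all genes rose in WT, R117fs and G659fs, and 17.7% fell in WT and 19.8% in G659fs. The 1 that rose in WT was lost without GFP 3, and 1 rather than 2 rose in R117fs without any 1 of 9 libraries. These are mRNA levels, and the phosphorylation that starts the pathway was not measured.

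Among 16 bZIP partners and relatives 3 rose in WT against GFP: CEBPD (1.75-fold), JDP2 (1.40-fold) and CEBPG (1.23-fold, edgeR adjusted p = 0.0426), the last a dimer partner of ATF4. The number was 1 without GFP 4 and 5 without R117fs 4. Of all genes 9.85% rose in the fit of all 16 libraries, and 18.2% without R117fs 4. None of the 16 genes rose in R117fs against GFP, where 8.57% of all genes fell. FOSL2, MAFF and ATF2 of the list fell there. Of these, MAFF was not called without R117fs replicate 4 (log2 -0.61, adjusted p = 0.0634), and 1 fell without GFP 2 or 4. In G659fs against GFP 5 rose, among them JUNB (1.53-fold) and CEBPA (1.34-fold), and in G659fs against R117fs 5 rose, with the smallest adjusted p for FOSL2 (log2 0.63 ± 0.11, adjusted p = 0.000857) and MAFF (log2 1.09 ± 0.19, adjusted p = 0.00105). Each number of 5 was 3 without some 1 library: GFP 1, GFP 3, G659fs 2 or G659fs 4 in the former, and R117fs 2, G659fs 2 or G659fs 4 in the latter. Of all genes 11.6% rose in the former and 6.35% in the latter. In G659fs against R117fs none of these 16 fell (1 did without R117fs 3 or 4), while DDIT3, ATF5, TRIB3 and PPP1R15A did. Of 13 mitochondrially encoded genes, read as a sign of RNA quality, 7 rose in G659fs against GFP, 3 in WT and 1 in R117fs. Of all genes 11.6%, 9.85% and 7.04% rose in these comparisons. The part of the 13 genes in the results above was not tested.

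The genes whose log2 CPM ran most like DDIT3 over the 16 libraries were WARS (Pearson r = 0.98), P2RX1 (0.97), SYTL1 (0.95), ERN1 (0.94), which encodes the stress sensor IRE1, and SLFN5 (0.94). Those most like ATF3 were FUT1 (0.95), the tyrosyl-tRNA synthetase YARS (0.95), DHRS7 (0.95), PRR3 (0.94) and TAC1 (0.94). Those most like ATF4 were PGD (0.92), MARVELD1 (0.91), RPS3 (0.91), MCIDAS (0.91) and SCARA3 (0.90). They are the 5 highest of all genes tested in each case, the libraries include the differences between groups, and the values are descriptions.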

How the data were processed

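The submitters' processing notes name kallisto 0.45.1 and GRCh38. Each deposited file lists 178136 transcripts with 2 values, an estimated count that need not be whole and a TPM, scaled by the authors to effective length and library. The annotation behind them, the read strand and the run options are not given in the sources used here. RNA came from an RNeasy extraction that included DNase I and went into NEBNext libraries, per the labels' protocols.

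Transcripts were matched by identifier to GENCODE 29 (91.2% matched, and 1.904% to 2.216% of counts were left out). Estimated counts were summed per gene and rounded to whole numbers, and deposited TPM values, summed per gene, served only to compare levels between genes and to check cell markers. Groups and replicate numbers come from the labels. edgeR 4.0.16 in R 4.3.3 (TMM, filterByExpr, robust quasi-likelihood fit) was run once on all 16 libraries, with 1 coefficient per group, over 16787 genes. The common biological coefficient of variation was 0.103. Standard errors (SE) were taken from the fold change and its F value, and intervals from the t distribution on the fit's degrees of freedom. CPM is scaled after TMM. The procedure was tested on simulated data with the depths of WT against GFP: of 16787 genes it called 86% of those changed 1.5-fold and 97% of those changed 2-fold, and 7.58% of calls were of unchanged genes. The simulated counts were independent between genes, with a spread set by level alone and no library with a GC trend. These rates therefore need not hold for the real libraries.

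The 26 alternatives were DESeq2 1.42.0, its size factors in edgeR, no low-count filter, only the 8 libraries compared, each of 16 libraries left out, the replicate number as a block, effective length as an offset, a GC trend removed with and without that block, only transcripts of matching version, and, added after seeing the data, R117fs replicates 1 and 4 left out together. The 10 genes and the lists were chosen with earlier results of these data known. From each of 4 pathway lists up to 4 changed genes per comparison with the smallest adjusted p could be named, along with all 10 regulators and the 5 genes most like ATF4, DDIT3 and ATF3 by Pearson r. Libraries of a group differed by more than sampling noise (chi-square per degree of freedom of 3.53 or more), so none was counted as a duplicate. Promoter windows are those of RefSeq (GRCh38.p14).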

Additional observations from a re-analysis of the deposited data

How the results depend on the processing

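Of 1560 log2 fold changes of the 10 genes under the 26 alternatives, 1341 kept their direction and their side of the threshold, 90 became calls, 86 lost a call, and 43 changed sign, all of them values that were not called either way. The causes were not tested.

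The number of the 10 genes that rose in WT against GFP (4) ranged from 1 to 7 without 1 library. It was 7 with the GC trend removed, 8 with that and the replicate block, and 7 without R117fs 1 and 4. Of all 16787 genes 3158 rose with the GC trend removed, against 1654 in the main fit. The numbers of all genes called also moved in the settings below, and the next paragraph gives them. For R117fs against GFP (4 rose) the range was 1 to 5, with 2 in a fit of the 8 libraries compared and 1 without R117fs 1 and 4. For G659fs against GFP (1 fell) the range was 0 to 2. It was 2 with DESeq2, with the block, with the GC trend removed and without R117fs 1 and 4, 3 with GC and block together, and 0 without a filter or with the length offset. The number that rose there (1) was 2 with GC and block and without R117fs 1 and 4. For R117fs against WT (1 fell) the range was 1 to 2, with 0 in the fit of 8 libraries and with the length offset, 3 with the GC trend removed, and 4 with GC and block or without R117fs 1 and 4. For G659fs against WT (3 fell) the range was 0 to 6, with 5 in DESeq2, 8 in the fit of 8 libraries, 6 with the block, 7 with the GC trend removed or without R117fs 1 and 4, and 8 with GC and block. For G659fs against R117fs (4 fell, 0 rose) the range was 1 to 4, with 2 without a filter. Without R117fs 1 and 4 it was 2, and 2 rose. Over all genes, deviations of same-numbered libraries had r from -0.062 to 0.16 (24 pairs, median 0.034, 4 over 0.1), against a median of -0.016 for 72 pairs of different number, so the numbers were not taken to pair samples. Of the 10 genes, 10 in GFP, 7 in WT and 9 in G659fs were highest in replicate 1, and 8 in R117fs in replicate 4. The same held for 29.06%, 31.05%, 31.54% and 37.1% of all genes tested, in that order. Each library was picked from the commonest order of the 10 genes themselves.

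Over all genes the counts called moved by more than 1.5 times. WT against GFP had 3603, but 5919 in the fit of 8 libraries, 6279 with the GC trend removed (6858 with the block), 6718 without R117fs 1 and 4, and 2222 to 6133 without 1 library. R117fs against GFP had 2620, but 588, 4526 and 5112 in the first 3 of these, 1740 with the length offset, and 1455 at the lowest without 1 library. G659fs against GFP had 4258, but 6993, 6731, 7244 and 7274, and 6723 without R117fs 4. R117fs against WT had 1362, but 154, 3046, 3783 and 3375, 853 with the length offset, and 626 to 2607 without 1 library. G659fs against WT had 953, but 4660, 3246, 3979 and 4150, 1663 with DESeq2, 601 without a filter, 438 with the length offset, and 100 to 3530 without 1 library. G659fs against R117fs had 2412, but 796, 4943, 5551 and 4545, and 1320 to 4012 without 1 library. The share of higher calls moved most with the GC trend removed, in R117fs against WT from 55.4% to 43.8% (1333 higher and 1713 lower) and in G659fs against R117fs from 44.2% to 54.2% (2681 higher and 2262 lower).

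The sign changes were these. In R117fs against GFP, ATF4 was -0.014 with the length offset, -0.01 with the GC trend removed, -0.013 with GC and block, -0.082 without R117fs 1 and 4, and -0.021 to 0.084 without 1 library. SESN2 was -0.019, -0.067, -0.072, -0.285 and -0.101 to 0.135 in the same settings, while ATF5 was -0.205 and CHAC1 -0.074 without R117fs 1 and 4. In G659fs against GFP, leaving out 1 library gave -0.109 to 0.211 for TRIB3 and -0.002 to 0.129 for DDIT4. In R117fs against WT, ATF5 was -0.097 with the GC trend removed, -0.078 with GC and block, -0.367 without R117fs 1 and 4, and -0.114 to 0.198 without 1 library. DDIT4 was -0.085, -0.085, -0.153 and -0.097 to 0.092. TRIB3 was -0.005 with the GC trend removed, -0.091 without R117fs 1 and 4, and -0.016 to 0.259 without 1 library, where CEBPB was -0.215 to 0.075 and PPP1R15A -0.232 to 0.022. In G659fs against R117fs, CHAC1 was -0.113 with transcripts of the same version and -0.046 to 0.205 without 1 library, where ATF4 was -0.037 to 0.069 and CEBPB -0.251 to 0.038. Without R117fs 1 and 4, SESN2 was 0.021 and CEBPB 0.12.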

Other observations

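Deviations of the 10 regulators from their group means were also set beside those of RNF43 itself, pooled over the 4 groups. After subtraction of group means, the Pearson correlation of log2 CPM with RNF43 over the 16 libraries was below 0 for 9 of the 10, with a median of -0.57, where 8482 of 16786 other genes were below 0, with a median of -0.01. It was -0.69 for ATF4, -0.68 for SESN2, -0.64 for ATF5, -0.59 for CHAC1 and -0.52 for DDIT4, and 0.07 for PPP1R15A. Without R117fs replicate 4 it was -0.89 for CHAC1, -0.85 for DDIT4 and -0.75 for ATF4. In the GFP group, where RNF43 was at most 50.3 CPM, the library with the least RNF43 (13.1 CPM) had the highest values of all 10 genes and the library with the most had the lowest of 9. Of all genes tested 29.06% were highest in the first of these libraries, and 26.14% were lowest in the second. An inverse order did not hold in every group. In G659fs replicates 1 to 4, RNF43 was 36250, 38900, 35240 and 47180 CPM. ATF4 ran in the same order there, at 1129, 1147, 1094 and 1163 CPM. The SD of RNF43 was 49.1% of its mean in GFP and 40.2% in R117fs, but 15.1% in WT and 13.75% in G659fs. With the log2 total count of the library the correlation lay between -0.64 (PPP1R15A) and -0.01 (ATF4). These relations were looked at after the values were seen, the points share libraries and scaling, and no test was made of them.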
